A study of Mus musculus with 16 samples.

Results

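The transcripts of 10 secreted inhibitors of Wnt signaling were followed in the cortical bone of the mouse femur: Sost, Sostdc1, Dkk1, Dkk2, Dkk3, Wif1, Sfrp1, Sfrp2, Sfrp4 and Frzb. They were chosen by gene symbol, and all 10 were found among the 36829 features listed for every mouse. RNAseq had been performed on 16 female C57Bl/6 mice of 11 weeks, with 1 library per mouse. The 8 control mice (Control 1 to 8) bore weight normally, and 8 mice were subjected to hindlimb unloading (HLU 1 to 8) for 7 days, in which a tail harness keeps the hind legs off the cage floor. All mice were of 1 strain, sex and age, so the results describe that strain, sex and age. The bone was the femoral shaft with its ends removed and its marrow flushed, a tissue made up of osteocytes together with cells of the bone surfaces, vessels and any marrow left behind.

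Wnt ligands signal by bringing a Frizzled receptor together with the coreceptors Lrp5 or Lrp6, which stabilizes β-catenin, and in bone this pathway favors bone formation. Secreted inhibitors act outside the cell in one of a few ways. Sclerostin (Sost), a product of mature osteocytes, and the dickkopf protein Dkk1 bind the coreceptors, whereas Wif1 and the secreted frizzled-related proteins (Sfrp1, Sfrp2, Sfrp4 and Frzb) bind Wnt ligands themselves. Sclerostin is known as a gene product regulated by mechanical load, which is the question that the comparison of HLU with control mice addresses for this set.

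The values are RPKM, which scales the reads of a gene to its length and to the size of the library. Levels of different genes can therefore be compared as far as the gene lengths hold. The lengths recovered from the values were 3403 bases for Wif1, 5459 for Sfrp4, 2823 for Sfrp2 and 3644 for Frzb. Their exons in GENCODE M21 cover 2427, 4179, 2153 and 3237 bases. For the other inhibitors both lengths were equal or nearly so. The numbers of reads by which the libraries had been divided were recovered from the values and ranged from 7067512 to 21363584, with no difference between groups past the test (exact permutation test, p = 0.502). At these depths 3 reads on a gene of 1 kb correspond to 0.140 to 0.424 RPKM. The smallest libraries were those of Control 2 and HLU 5. Of the reads by which each library was divided, 76.3% to 93.2% lay on listed features. The median share was 90.1% in control and 86.6% in HLU (exact permutation test, p = 0.133). In the comparison over all features, HLU was compared with control by limma on log2(RPKM + 0.1) for the 16973 features that averaged at least 0.5 RPKM, with Benjamini-Hochberg adjustment over all of them. No feature passed an adjusted p of 0.1 with a change of at least 1.2-fold (0.0% of features, lowest adjusted p = 0.256 in limma), whereas 1049 features had an unadjusted p under 0.05, and limma's voom method on the recovered reads gave 0 and 922. With the 1.2-fold threshold as well, 188 features were higher in HLU (1.11% of those tested), 808 were lower (4.76%) and 996 passed in either direction (5.87%). The median feature was lower in HLU, with a log2 fold change of -0.10, and 32.1% of features had a log2 fold change above 0. That shift depended on the scaling. With median-of-ratios rescaling the median was -0.01 and the counts were 381 higher and 394 lower. Quantile normalization gave counts of 460 and 364. With voom, scaled to the reads on listed features, the median was -0.04.

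Of the 10 inhibitors, 9 passed the filter on low values. None of the 9 passed the adjusted threshold, and 0 of 9 passed an unadjusted p of 0.05 with a 1.2-fold change, beside 5.87% of all features. The log2 fold changes of the 9 leaned upward all the same: 8 were above 0 and 1 was below, with a median of 0.39 beside -0.10 over all features. Other Wnt genes leaned this way too: 7 of 7 tested ligands, 9 of 12 receptors and coreceptors and 3 of 4 R-spondin genes were above 0. So were 2 of 4 other extracellular inhibitors and 4 of 7 target genes. Several of the 9 varied together between mice, so they are not 9 separate observations. Without any test, 6 of the 9 were at least 1.2-fold higher in HLU, beside 9.06% of all features, and 0 were at least 1.2-fold lower, beside 23.6%. In 0 of the 9 did every HLU mouse lie above every control mouse. In bulk bone, fewer cells of a type cannot be told apart from less RNA per cell, and this holds for each level given here.

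**Figure D1:**
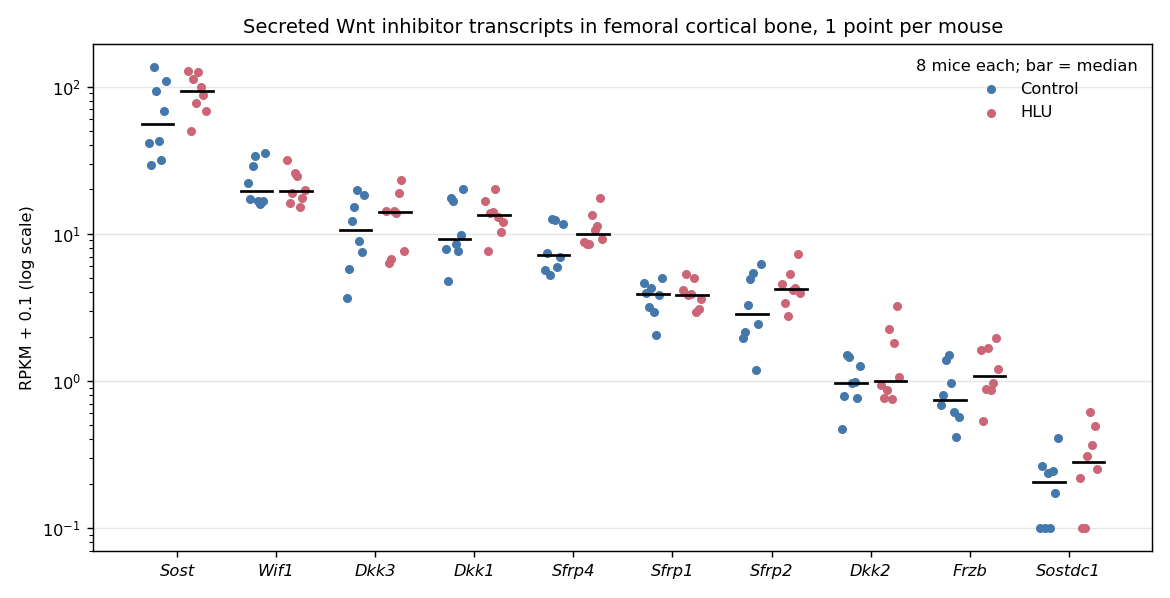
RPKM + 0.1 on a log scale (vertical axis) of the 10 inhibitors (horizontal axis, ordered by control median), with 1 point for each of 8 control and 8 HLU mice and a bar at each group's median. Groups overlap for every gene, and the Sost medians lie at 55.4 RPKM in control and 93.2 RPKM in HLU.

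Sost and Dkk1 act at the coreceptors, as Dkk2 also can. They are described first with Wif1, since these 3 transcripts varied together between mice as shown further on. Their promoters are printed for that reason. Each line gives the bases just before the gene in RefSeq on GRCm38.p6, 5′ to 3′ on the gene's strand, within 250 bases of the RefSeq start. Bases lying inside the gene as annotated by GENCODE are not shown. Capitals mark exact matches on either strand to the TATA box TATAAA, the Tcf/Lef core CTTTGA, the Runx core ACCACA, the GC box GGGCGG or the AP-1 site TGANTCA.
Sost, chr11:101967016-101967265, minus strand: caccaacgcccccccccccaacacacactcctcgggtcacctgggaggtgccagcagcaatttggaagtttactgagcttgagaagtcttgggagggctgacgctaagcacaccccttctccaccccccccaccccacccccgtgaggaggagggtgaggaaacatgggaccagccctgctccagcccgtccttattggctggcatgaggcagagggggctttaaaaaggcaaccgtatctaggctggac
Dkk1, chr19:30549666-30549746, minus strand: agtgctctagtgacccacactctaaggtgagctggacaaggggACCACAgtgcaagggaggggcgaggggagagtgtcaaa
Wif1, chr10:121033754-121033959, plus strand: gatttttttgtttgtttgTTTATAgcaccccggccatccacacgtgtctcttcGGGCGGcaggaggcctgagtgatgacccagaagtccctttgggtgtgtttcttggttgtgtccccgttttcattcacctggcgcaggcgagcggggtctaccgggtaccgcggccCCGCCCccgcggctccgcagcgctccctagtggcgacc
No motif was found in all 3 promoters, and the Sost window held 0 matches. The full 250 bases before the Dkk1 start held ACCACA at -207 to -202, CTTTGA at -174 to -169 on the opposite strand and at -117 to -112 on the gene's strand, and TATAAA at -54 to -49, counted from the RefSeq start. The Wif1 window held TATAAA at -232 to -227 on the opposite strand and GGGCGG at -197 to -192 and, on the opposite strand, at -82 to -77. Among 32851 RefSeq promoters TATAAA was found in 12.4%, CTTTGA in 13.8%, ACCACA in 14.0%, GGGCGG in 32.7% and TGANTCA in 6.75%. Promoters were matched for 6 of the 10 inhibitors.

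Sost lies on chromosome 11 (101962458 to 101967015, minus strand, GRCm38 with GENCODE M21) and was the most abundant of the 10 transcripts. Control mice ranged from 29.4 to 136 RPKM with a median of 55.4, and HLU mice ranged from 49.6 to 127 RPKM with a median of 93.2. The groups overlapped: 4 control mice lay below every HLU mouse and 7 of 8 HLU mice exceeded the control median, but the highest value belonged to Control 3. Mean levels were 68.9 ± 39.8 RPKM in control and 93.4 ± 28.0 RPKM in HLU (SD, n = 8 each). The log2 fold change was 0.59 with a standard error of 0.32 and a 95% interval of -0.08 to 1.26, or 0.945-fold to 2.39-fold (limma, p = 0.0815, adjusted p = 0.744, exact permutation p = 0.108). The difference did not pass a p of 0.05 in either test. Control mice spread widely, with an SD of 0.85 on the log2 scale against 0.47 in HLU, and the pooled SD of Sost exceeded that of 77.7% of features. Between 430 and 5131 reads lay behind each value, so counting error was small beside this spread. Relative to the other inhibitors, Sost made up 38.7% to 65.3% of the summed RPKM of the 10 genes in control mice and 49.0% to 66.8% in HLU mice. These shares rest on the gene lengths behind the values. Without the libraries of Control 2 and HLU 5, the log2 fold change of Sost was 0.37. With median-of-ratios rescaling it was 0.68 and with quantile normalization 0.72, and in both it passed an unadjusted p of 0.05 but not the adjusted threshold.

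Dkk1, which binds Lrp5 and Lrp6 together with Kremen receptors and removes them from the cell surface, lies on chromosome 19 (30545863 to 30549665, minus strand). Its control values ran from 4.66 to 20.05 RPKM with a median of 9.08, and its HLU values from 7.57 to 20.13 RPKM with a median of 13.3. All but 1 of the HLU mice stood above the control median, yet only HLU 5 exceeded every control mouse, and that by little. The log2 fold change was 0.32 with an interval of -0.27 to 0.90 (limma, adjusted p = 0.771, exact permutation p = 0.301). It was 0.16 without Control 2 and 0.07 without both small libraries (Control 2 and HLU 5).

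Wif1, which captures Wnt ligands through its WIF domain, lies on chromosome 10 (121033960 to 121100650, plus strand) and was the second most abundant inhibitor. Control mice ranged from 15.9 to 35.2 RPKM around a median of 19.5, and HLU mice from 15.05 to 31.4 RPKM around a median of 19.4. The groups covered nearly the same range, and Wif1 was the 1 inhibitor whose estimate lay below 0, at -0.10 on the log2 scale with an interval of -0.53 to 0.34 (limma, adjusted p = 0.908, exact permutation p = 0.650). Its sign depended on the scaling of the libraries, since quantile normalization gave 0.03.

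The other dickkopf genes were lower than Sost and Wif1. Dkk3, the most divergent member of its family, lies on chromosome 7 (112116017 to 112159057, minus strand). It ranged from 3.57 to 19.9 RPKM in control (median 10.5) and from 6.24 to 23.2 RPKM in HLU (median 13.9). Its groups overlapped almost entirely, and its pooled SD on the log2 scale, 0.78, was higher than that of 83.2% of features. The log2 fold change was 0.26 with an interval of -0.51 to 1.02 (limma, adjusted p = 0.856, exact permutation p = 0.515). It was 0.05 without Control 1, 0.12 without HLU 7 and 0.12 without the 2 smallest libraries. Dkk2, which can inhibit or activate the coreceptors depending on the cell, lies on chromosome 3 (132085292 to 132180304, plus strand) and was close to the filter at 0.371 to 1.40 RPKM in control (median 0.870) and 0.656 to 3.13 RPKM in HLU (median 0.897). Medians nearly coincided, while 3 HLU mice lay above every control mouse. Its log2 fold change was 0.39 with an interval of -0.31 to 1.09 (limma, adjusted p = 0.766, exact permutation p = 0.275), resting on 18 to 202 reads per mouse. Without HLU 7 it was 0.20.

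Among the secreted frizzled-related proteins, which carry a cysteine-rich domain like that of the Frizzled receptors, Sfrp4 was the most abundant. It lies on chromosome 13 (19623104 to 19632994, plus strand). Control mice had 5.14 to 12.4 RPKM (median 7.09) and HLU mice had 8.36 to 17.5 RPKM (median 9.82). All 8 HLU mice exceeded the control median, 5 control mice lay below every HLU mouse and 2 HLU mice lay above every control mouse, so this gene had the lowest limma p of the 9. Its log2 fold change was 0.42 with a standard error of 0.22 and an interval of -0.05 to 0.88 (limma, p = 0.0740, adjusted p = 0.744, exact permutation p = 0.0908). Mean levels were 8.36 ± 3.15 RPKM in control and 10.9 ± 3.19 RPKM in HLU (SD, n = 8 each). As for Sost, both rescalings took it past an unadjusted p of 0.05 (log2 fold change 0.51 and 0.54) and not past the adjusted threshold.

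Sfrp2, a gene of stromal and periosteal cells, lies on chromosome 3 (83766321 to 83774316, plus strand). It ranged from 1.08 to 6.16 RPKM in control (median 2.74) and from 2.66 to 7.15 RPKM in HLU (median 4.12), with 4 control mice below every HLU mouse and 7 HLU mice above the control median. The log2 fold change was 0.52 with an interval of -0.13 to 1.17 (limma, adjusted p = 0.746, exact permutation p = 0.139). The antisense gene Gm26771 overlaps Sfrp2, and because the strand setting of the counting is not given in the sources used here, reads of the pair cannot be told apart.

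Frzb, also called Sfrp3 and best known from cartilage, lies on chromosome 2 (80411970 to 80447625, minus strand). Its values were low, 0.317 to 1.39 RPKM in control (median 0.642) and 0.434 to 1.87 RPKM in HLU (median 0.981), from 18 to 119 reads per mouse. The control median was exceeded in 7 HLU mice, and 3 of them had more than any control mouse. The log2 fold change was 0.50 with an interval of -0.16 to 1.15 (limma, adjusted p = 0.747, exact permutation p = 0.135).

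Sfrp1 lies on chromosome 8 (23411502 to 23449632, plus strand) and varied least of the family, with 1.94 to 4.87 RPKM in control (median 3.82) and 2.86 to 5.22 RPKM in HLU (median 3.75). Its log2 fold change of 0.11 had an interval of -0.27 to 0.50 (limma, adjusted p = 0.879, exact permutation p = 0.558). This interval does not reach the size estimated for Sost or Sfrp2, whereas those of most other inhibitors do.

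Sostdc1, a relative of sclerostin that also binds bone morphogenetic proteins, was scarcely detected. It lies on chromosome 12 (36314139 to 36318452, plus strand). Only 61 reads fell on it in all 16 mice, 0 to 12 per mouse, and 3 control and 2 HLU mice were at 0. A count of 0 allows up to 3 reads, which for this gene corresponds to 0.0802 to 0.242 RPKM depending on the library, a limit that covers counting error only. Control values were 0 to 0.305 RPKM (median 0.105) and HLU values 0 to 0.510 RPKM (median 0.180). Some lay above their library's limit, such as that of HLU 7 (12 reads, 0.392 RPKM beside a limit of 0.0980 RPKM). Sostdc1 did not pass the filter on low values, and the exact permutation test gave p = 0.250. Any difference between groups was not detectable at this depth.

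**Figure D2:**
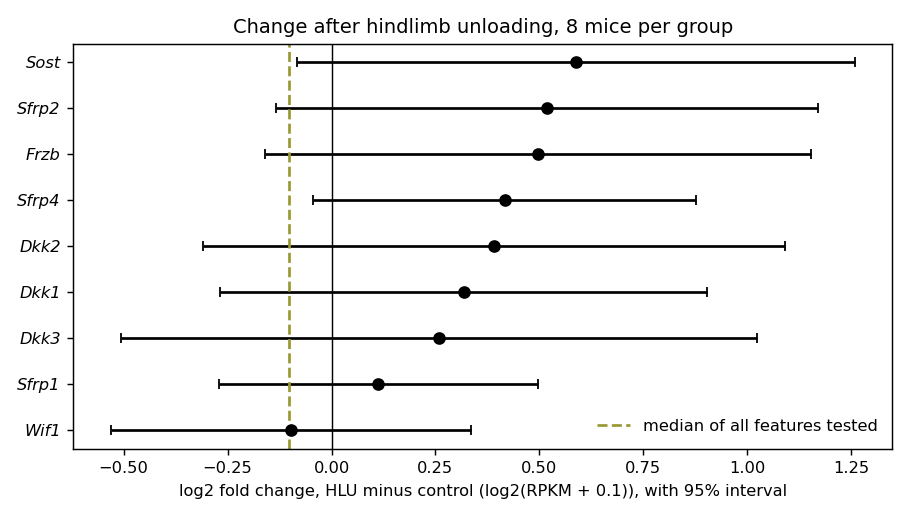
Log2 fold change of the 9 tested inhibitors (HLU minus control, log2(RPKM + 0.1), horizontal axis) with 95% intervals from limma, 8 mice per group, and a dashed line at the median of all features. Every interval includes 0, and 8 of the 9 estimates lie to the right of it.

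By control medians the order of levels ran Sost, Wif1, Dkk3, Dkk1, Sfrp4, Sfrp1, Sfrp2, Dkk2, Frzb and Sostdc1. This order rests on the gene lengths behind the values. It was not computed with the shorter GENCODE lengths of Wif1, Sfrp4, Sfrp2 and Frzb. Neighbors were compared within control mice by an exact sign-flip permutation test, whose smallest p with 8 mice is 0.00781, adjusted over the 9 neighboring pairs. Sost exceeded Wif1, Sfrp4 exceeded Sfrp1, Sfrp2 exceeded Dkk2 and Frzb exceeded Sostdc1 in 8 of 8 control mice (exact p = 0.00781, adjusted p = 0.0176 each). Wif1 exceeded Dkk3 in 7 of 8 (exact p = 0.0156, adjusted p = 0.0281). The neighbors Dkk3 and Dkk1 (exact p = 0.734) and Dkk1 and Sfrp4 (exact p = 0.188) did not pass the test. Neither did Sfrp1 and Sfrp2 (exact p = 0.344) nor Dkk2 and Frzb (exact p = 0.180). In HLU mice the same 4 pairs were ordered alike in 8 of 8 mice, whereas Wif1 exceeded Dkk3 in 6 of 8 (exact p = 0.0313, adjusted p = 0.0563). By HLU medians 2 neighbors stood the other way round, Sfrp2 (4.12 RPKM) above Sfrp1 (3.75 RPKM) and Frzb (0.981 RPKM) above Dkk2 (0.897 RPKM). Neither pair passed the test in HLU mice (exact p = 0.570 and 0.422).

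Variation between mice was then compared among the inhibitors. Log2 values were centred on each group's mean, so that the difference between HLU and control did not enter, and correlations over the 16 mice were tested by 100000 permutations within groups for all 36 pairs. Of these, 33 were positive, the median r was 0.46, and 10 had an adjusted p under 0.05. Sost and Dkk1 were the closest pair (r = 0.927, rho = 0.944, permutation p = 1e-05 for both, the smallest these permutations can give, adjusted p = 0.00036). The relation was present in each group, with r = 0.946 over control mice and r = 0.867 over HLU mice. Without the 2 mice farthest from the median Sost level (Control 2 and Control 6) r was 0.910. Among the 16972 other features ranked by their correlation with Sost, Dkk1 came 3 from the top, and Sost held the same rank for Dkk1.

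The values by mouse show this directly. Control 2 had the lowest Sost (29.4 RPKM) and the lowest Dkk1 (4.66 RPKM), and among HLU mice the lowest of both belonged to HLU 2 (49.6 and 7.57 RPKM). Control 3, Control 4 and Control 8 were the 3 highest control mice for both genes. In each mouse Sost exceeded Dkk1, by 4.21-fold to 7.81-fold in control and 5.56-fold to 8.51-fold in HLU.

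Wif1 followed the same mice less closely. Its correlation was r = 0.806 with Dkk1 (rho = 0.735, adjusted p = 0.00842 for r) and r = 0.713 with Sost (rho = 0.676, adjusted permutation p = 0.0345 for r and 0.0656 for rho). Within HLU mice alone the r of Sost and Wif1 was 0.487, and without the 2 mice farthest from the median (Control 2 and Control 6) it was 0.637. The same 3 control mice that were highest for Sost (Control 3, 4 and 8) were highest for Wif1, at 28.7, 33.5 and 35.2 RPKM.

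**Figure D3:**
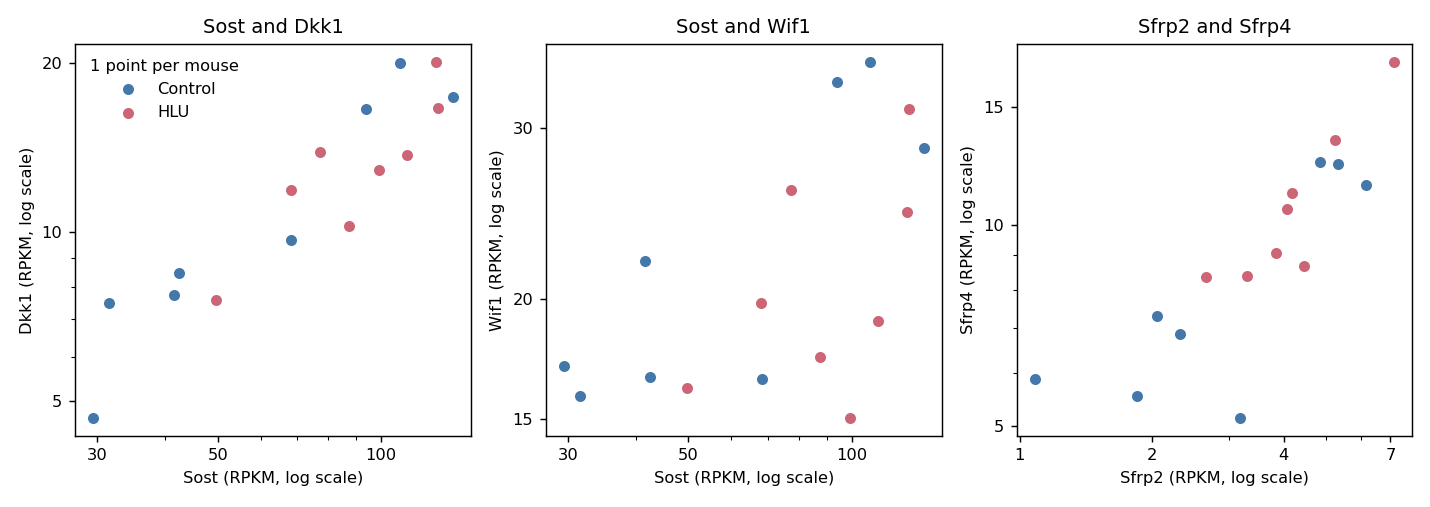
RPKM of Dkk1 against Sost, Wif1 against Sost and Sfrp4 against Sfrp2 on log axes, 1 point for each of 8 control and 8 HLU mice. Points of both groups rise together in each panel, most tightly for Sost and Dkk1 (r = 0.927 within groups) and least for Sost and Wif1 (r = 0.713).

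A second set of inhibitors, grouped like the first after the values had been seen, also varied together. Dkk3, Sfrp2, Sfrp4 and Dkk2 were correlated in all 6 of their pairs, with r = 0.817 for Sfrp2 and Sfrp4, r = 0.772 for Dkk3 and Sfrp2, r = 0.747 for Dkk3 and Sfrp4 and also for Dkk3 and Dkk2, r = 0.615 for Dkk2 and Sfrp4 and r = 0.579 for Dkk2 and Sfrp2 (adjusted p from 0.00842 to 0.0357). By rank the pair Dkk2 and Sfrp4 did not pass (rho = 0.50, adjusted permutation p = 0.150). Many other features followed some of these genes as closely. Among the 16972 other features ordered by their r with Dkk3, Sfrp2 came 734 from the top, Sfrp4 925 and Dkk2 927. For Dkk2, Dkk3 came 223, Sfrp4 1021 and Sfrp2 1245. Sfrp4 was matched more closely, with Sfrp2 at 12 and Dkk3 at 47. Dkk2 was also correlated with Frzb (r = 0.635, adjusted permutation p = 0.0393; rho = 0.585, adjusted p = 0.0848). Leaving out the 2 mice farthest from the median Dkk2 level (HLU 4 and HLU 7) lowered these to r = 0.482 for Sfrp2, r = 0.400 for Sfrp4 and r = 0.474 for Frzb, so they rest in part on those mice, while Dkk2 with Dkk3 remained at r = 0.742. The 12 pairs that join Sost, Dkk1 or Wif1 to 1 of these 4 genes had r from 0.135 (Sost and Sfrp4) to 0.524 (Dkk1 and Dkk3), with 0 past the test. Sost had r = 0.498 with Sfrp2 and 0.482 with Dkk3, not far below the lowest pair within the second set. In control mice alone these 12 pairs reached a median r of 0.605 and a highest r of 0.715 (Dkk1 and Dkk2), and in HLU mice alone the median was 0.0126. Whether correlations within the sets differ from those between them was not tested. Sfrp1 passed the test with no other inhibitor, and its lowest r was -0.438, with Dkk2 (adjusted permutation p = 0.182).

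**Figure D4:**
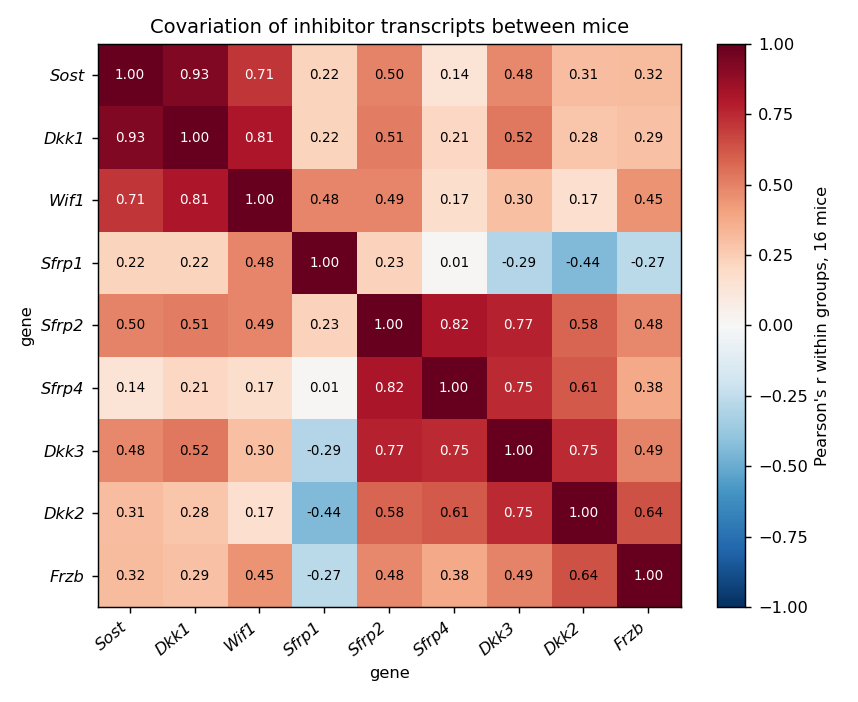
Pearson's r between each pair of the 9 tested inhibitors (both axes) over 16 mice after centring on the group means, with red positive and blue negative. Sost, Dkk1 and Wif1 are at 0.713 or above with each other and Sfrp2, Sfrp4, Dkk3 and Dkk2 at 0.579 or above, while pairs between these sets run from 0.135 to 0.524.

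Markers of the cell types that bone can hold were measured in the same libraries, as scores averaged over each list's genes. The osteocyte markers Dmp1 and Mepe were abundant in every mouse (50.8 to 181 RPKM and 58.7 to 323 RPKM). So was S100a8, a gene of the neutrophils of bone marrow (4438 to 16313 RPKM). The other osteocyte markers were lower, from Fgf23 at 0.196 to 4.50 RPKM up to Phex at 7.75 to 40.2 RPKM. None of 7 skeletal muscle markers was listed, and muscle was not analysed here. Of 90 relations between 9 inhibitors and 10 scores, tested by permutation within groups, 21 had an adjusted p under 0.05. Dkk1 and Sost followed the osteocyte score (r = 0.810 and r = 0.723, adjusted permutation p = 0.00936 and 0.0285) and the osteoblast score (r = 0.665 and r = 0.688). After the osteocyte score had been regressed out of both genes, r of Sost and Dkk1 was 0.842, and after the granulocyte score had been, 0.917. Sfrp2 with Sfrp4 and Dkk3 with Sfrp4 fell less than Sost with Dkk1 when the osteocyte score was regressed out. The r of Sfrp1 with Sost, Dkk1 and Wif1 rose with either score regressed out. Several other pairs fell further. With the osteocyte score regressed out Sost and Wif1 had r = 0.475, and the 12 pairs between the sets had a median r of -0.29. With the granulocyte score regressed out Dkk2 had r = 0.373 with Dkk3, 0.345 with Sfrp4 and 0.249 with Sfrp2. Wif1 had r = 0.637 with the osteocyte score and did not pass (adjusted permutation p = 0.0565).

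The second set followed the periosteal fibroblast score, with r = 0.897 for Dkk3, 0.805 for Sfrp2, 0.736 for Sfrp4 and 0.722 for Dkk2 (adjusted permutation p from 0.0009 to 0.0278). The same 4 genes ran opposite to the granulocyte score, with r = -0.816 for Dkk3, -0.736 for Dkk2, -0.603 for Sfrp2 and -0.575 for Sfrp4. Dkk3 was also correlated with the osteocyte (r = 0.809), chondrocyte (r = 0.791), marrow stromal and adipocyte (r = 0.658) and endothelial scores (r = 0.609). Sfrp2 passed with the marrow stromal and adipocyte score (r = 0.653). Dkk2 passed with the osteocyte score too (adjusted permutation p = 0.0423), with r = 0.932 over control mice and 0.405 over HLU mice. Sfrp2 passed with it by rank only (rho = 0.706, adjusted permutation p = 0.0378). The osteocyte score was thus not particular to Sost and Dkk1. Frzb ran opposite to the erythroid score (r = -0.728, adjusted permutation p = 0.0229) and the granulocyte score (r = -0.673). Sfrp1 had 1 relation past the test, with the B cell score (r = 0.708, adjusted permutation p = 0.0245). With the osteocyte score regressed out, its r with Dkk1 went from 0.220 to 0.618, and its r with Dkk2 from -0.438 to -0.432. After the granulocyte score had been regressed out, its r was 0.644 with Sfrp2 and 0.640 with Wif1. These shifts were not tested. All these relations share the same libraries, and RPKM values within a library sum under a common total.

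**Figure D5:**
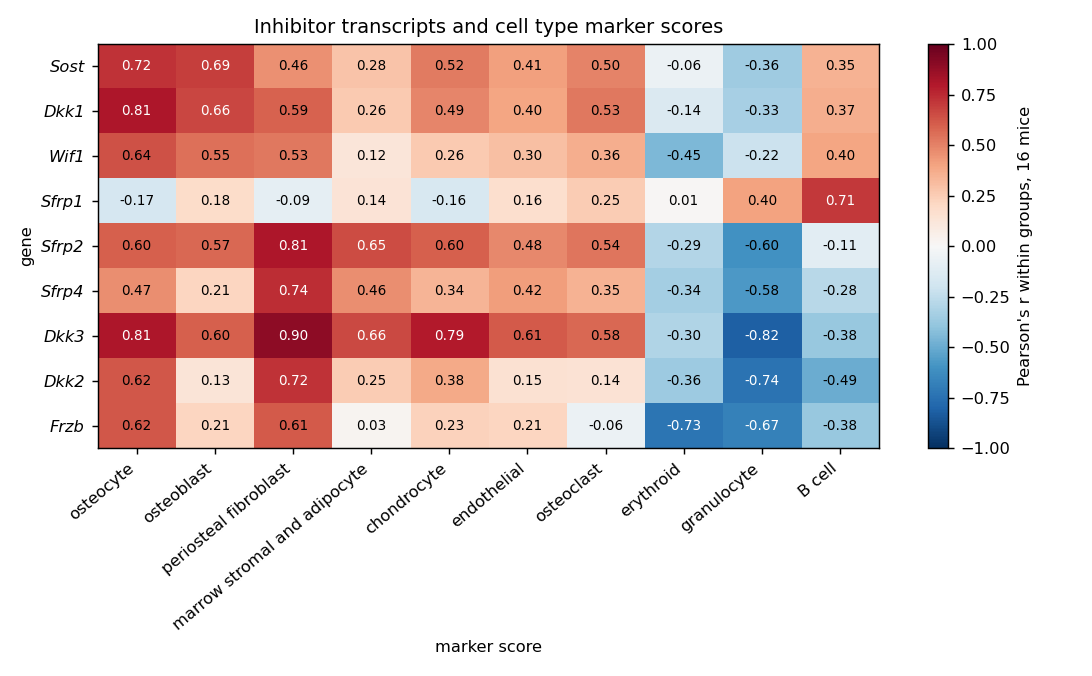
Pearson's r of the 9 tested inhibitors (vertical axis) with 10 cell type marker scores (horizontal axis) over 16 mice after centring on the group means. Sost and Dkk1 are highest with the osteocyte score, and Dkk3, Sfrp2, Sfrp4 and Dkk2 with the periosteal fibroblast score.

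The scores themselves were compared between groups beside the changes of the inhibitors. The osteocyte score was 0.34 higher in HLU on the log2 scale (exact permutation p = 0.174), with 7 of 7 markers kept and a summed level of 155 to 466 RPKM in control and 219 to 486 RPKM in HLU. The periosteal fibroblast score was 0.42 higher (6 of 6 markers, sums of 483 to 1503 RPKM and 537 to 1895 RPKM, exact permutation p = 0.220). The osteoblast score differed by -0.07 (exact permutation p = 0.819) and the granulocyte score by -0.12 (exact permutation p = 0.650). The erythroid score was 0.59 lower, with the lowest p of the 10 scores (sums of 2911 to 8507 RPKM and 1615 to 4341 RPKM, exact permutation p = 0.0838). With the osteocyte score as a covariate in limma, the log2 fold change was 0.24 for Sost, -0.02 for Dkk1 and -0.19 for Dkk3, and with the erythroid and granulocyte scores it was 0.65 for Sost. The osteocyte covariate also gave 0.09 for Dkk2, 0.24 for Sfrp2, 0.22 for Frzb and 0.26 for Sfrp4, and the erythroid and granulocyte covariates gave 0.14 for Frzb, 0.32 for Dkk2, 0.47 for Sfrp2 and 0.05 for Sfrp1. The part of cell makeup in the estimates was not tested beyond these values.

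The genes most like each inhibitor between mice were taken by the highest r over the 16 mice among features with a unique symbol, leaving out the inhibitors themselves, as a description. Outside the set, Sost and Dkk1 had the same 3 genes in the same order: Ndrg1, a gene induced by low oxygen (r = 0.945 and r = 0.946), Epcam, an epithelial adhesion molecule (r = 0.935 for both), and Plekhh2 (r = 0.901 and r = 0.906), the last of which lay below the r of Sost with Dkk1. For Wif1 they were the adhesion molecule Cadm1 (r = 0.914), the collagen lysyl hydroxylase Plod2 (r = 0.905) and Sema5a (r = 0.897). Dkk3 was matched by the matrix genes Thbs2 (r = 0.980), Lrrc15 (r = 0.978) and Tnn (r = 0.970). Sfrp2 was matched by Zfp521 (r = 0.909), Tub (r = 0.901) and the fibrillar collagen gene Col3a1 (r = 0.898), which is on the periosteal list too. Sfrp4 was matched by Snhg11 (r = 0.906), the intermediate filament gene Vim (r = 0.877) and Prss23 (r = 0.864). Matched genes had only to pass the filter on low values, and Snhg11 averaged 0.604 RPKM and Tub 1.35 RPKM. Sfrp1 was matched by the Wnt agonist gene Rspo2 (r = 0.926), Efemp1 (r = 0.918) and Ppp4r1l-ps (r = 0.917). No test was made of these values.

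None of the other genes of the pathway passed the adjusted threshold. At an unadjusted p under 0.05 and 1.2-fold, 2 of 12 receptors and coreceptors and 1 of 4 R-spondin genes were higher. Of all features 1.11% were higher by this threshold. Lower in HLU was 1 of 7 target genes, beside 4.76% of all features. Of 19 Wnt ligand genes 7 passed the filter, and 0 passed an unadjusted p of 0.05 with a 1.2-fold change, with a median log2 fold change of 0.18. Of 18 receptors and coreceptors 12 were tested, with a median of 0.10. The Frizzled receptors Fzd4 and Fzd7 were higher in HLU at an unadjusted p, by 0.53 and 0.38 on the log2 scale (limma, p = 0.0440 and 0.0320, exact permutation p = 0.0603 and 0.0317). Of 9 R-spondins, their receptors and receptor ligases 4 were tested, with a median of 0.20. The agonist Rspo3 was higher by 0.47 (limma, p = 0.0450, exact permutation p = 0.0491). Of 8 other extracellular inhibitors 4 were tested, with 0 past the threshold and a median of 0.15. Of 11 Wnt target genes 7 were tested, with Axin2, Lef1, Nkd1 and Sp5 below the filter. The median of the 7 was 0.05 and does not cover those below it. The 1 past the threshold was Myc, a transcription factor gene that many other signals regulate as well, at -0.49 (limma, p = 0.00596, exact permutation p = 0.00730). The adjusted p of each of these 4 genes was 0.744 in limma.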

How the data were processed

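Cortical bone RNA of 16 mice was sequenced by the authors, 1 library per mouse, and each mouse's values were deposited as RPKM for 36829 features. The deposited files do not name their unit. It was inferred from the values, which are whole reads divided by a gene length and by a number of reads per library. Reads were recovered as whole numbers for all 29628 features above 0 (largest relative difference on rebuilding 2.02e-07). The submitters' processing notes name mm9, TopHat2 and DESeq2 without versions. The annotation and the counting tool are not given in the sources used here. A shift in composition between libraries is not corrected in RPKM.

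Groups came from the sample labels. The 16973 features averaging 0.5 RPKM or more entered the comparison of HLU with control, made on log2(RPKM + 0.1) by limma 3.58.1 in R 4.3.3 with a variance trend and Benjamini-Hochberg adjustment, where a fold change on this scale understates that of low genes. Since RPKM values are not counts, DESeq2 was not used here. Single values were also tested by exact permutation, two-sided, over the 12870 ways to split the mice into 8 and 8 (smallest p 0.000155). Correlations were computed with scipy 1.17.1, numpy 2.4.6 and pandas 2.3.3 under Python 3.11.15, and tested two-sided, and figures were drawn with matplotlib 3.10.9. A marker score is the mean of its genes' log2 values, each centred on its mean over the mice. Scripts were tested on simulated data. Depth per library was 7067512 to 21363584 reads, so counting precision is lowest for Sostdc1, Frzb and Dkk2.

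The inhibitors, the other gene lists and the tests were chosen with earlier results of these data known. The named genes are the 10 inhibitors, the Wnt pathway genes past an unadjusted p of 0.05 with a 1.2-fold change, and, for each inhibitor with a mean of at least 2 RPKM, the 3 most correlated features. Alternatives covered the pseudocount, filter, scaling, replicate block, variance model, weights, covariates, voom on recovered reads and leaving out each mouse. Positions are those of GENCODE M21 on GRCm38, not the authors' build. Promoters are from RefSeq on GRCm38.p6. A separate probe assay reported with the study was not used here.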

Additional observations from a re-analysis of the deposited data

How the results depend on the processing

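The analysis was repeated with 28 other settings and 1 added after the depths had been seen (without the 2 smallest libraries, Control 2 and HLU 5). The number of inhibitors past an unadjusted p of 0.05 with a 1.2-fold change was 0 except where the libraries were rescaled or a mouse was left out. It was 2 under median-of-ratios rescaling (Sost 0.68 and Sfrp4 0.51 on the log2 scale) and 2 under quantile normalization (0.72 and 0.54). Of all 16973 features, 381 were higher and 394 lower in the former setting, and 460 higher and 364 lower in the latter. These rescalings move the median feature from -0.10 to -0.01 and 0.00. Leaving out single mice gave 0 to 3: Sost, Sfrp2 and Sfrp4 passed without Control 8 (0.71, 0.67 and 0.49), Sost and Frzb without HLU 2 (0.71 and 0.65), Sost without Control 3 (0.76) and Sfrp4 without Control 4 or Control 5 (0.51 each). Estimates also fell: over single mice left out, Dkk1 went from 0.16 (without Control 2) to 0.45, Dkk2 from 0.20 (without HLU 7) to 0.50 and Dkk3 from 0.05 (without Control 1) to 0.40. None of the 9 passed the adjusted threshold in any of these. The sign turned for Wif1 under quantile normalization (0.0263), for Dkk1 and Dkk3 with the osteocyte score as a covariate (-0.0244 and -0.19) and for Sfrp1 without Control 6 (-0.0052, in a range of -0.0052 to 0.18 when leaving out single mice). The cause was not tested.

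Over all features, the counts higher and lower in HLU were 381 and 394 under median-of-ratios rescaling and 460 and 364 under quantile normalization, against 188 and 808. They were 1142 and 1717, with 108 past the adjusted threshold, with erythroid and granulocyte scores as covariates. The count higher was 391 with no filter (1 adjusted), 106 at a minimum mean of 2 RPKM, 110 with the osteocyte covariate and 108 without the 2 smallest libraries. Without the variance trend 1 feature passed the adjusted threshold. Leaving out single mice gave 117 to 363 higher, 471 to 1385 lower and 0 to 1 adjusted. The counts moved by over 1.5 times without HLU 2 (363 and 1385), HLU 3 (310 higher), HLU 7 (117 and 471), HLU 1 (488 lower), Control 6 (505 lower) and Control 7 (512 lower).

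Replicate numbers are shared between groups but do not pair the mice: same-numbered mice correlated at -0.17 to 0.51, and 1 of 8 control mice, Control 4, correlated best with its own number. With the number as a replicate block the counts were 199 and 840, and 0 inhibitors passed an unadjusted p of 0.05.

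With median-of-ratios rescaling 4 of the 36 correlations between inhibitors newly passed the test, and with a pseudocount of 1 RPKM 1 did. The r moved by at least 0.2 in 25 of 36 pairs with the osteocyte score regressed out, 17 with the granulocyte score, 20 in HLU mice alone and 8 in control mice alone. Depth limits Sostdc1 most, with 0 to 12 reads per mouse.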

Other observations

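The balance between inhibitors was also compared, in ratios of RPKM chosen after the values had been seen. Sost relative to Wif1, the coreceptor-binding against the ligand-binding inhibitor of highest level, ranged from 1.73 to 4.74 in control mice (median 2.68) and from 2.98 to 6.59 in HLU mice (median 4.54). The log2 difference was 0.69 (exact permutation p = 0.0152). Dkk1 relative to Wif1 ranged from 0.274 to 0.607 in control (median 0.503) and from 0.469 to 0.857 in HLU (median 0.595), a log2 difference of 0.42 (exact permutation p = 0.0329). Of the 36 ratios between the 9 tested inhibitors these 2 were below an unadjusted 0.05, and 0 passed after adjustment over the 36 (lowest adjusted p = 0.433). A ratio within a library does not depend on the scaling between libraries.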
